A study of Sus scrofa with 3 samples.

Results

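Matrix metalloproteinases (MMPs) and the tissue inhibitors of metalloproteinases (TIMPs) were followed through 3 stages of molar development in the miniature pig. The genes were MMP1, MMP2, MMP3, MMP9, TIMP1, TIMP2 and TIMP3, and every probe set whose symbol in the array's annotation table is one of these 7 was taken. This gave 13 of the 23999 probe sets analysed, and each of the 7 genes had at least 1: MMP3 had 4, TIMP3 had 3, TIMP2 had 2, and MMP1, MMP2, MMP9 and TIMP1 had 1 each. The last deciduous molar germs of the mandible, with the dental lamina, came from Wuzhishan miniature pig embryos, were pooled within a litter, and each pool was read on 1 Affymetrix porcine array. The E40 pool was at the cap stage before a secondary dental lamina had formed, the E50 pool was at the bell stage when this lamina was starting, and the E60 pool was at the secretory stage, which the study's methods call late bell. The labels name no treatment and no genetic alteration. With 1 pool and 1 array per stage there were no replicates, so no p-value or error between animals can be given, and stage, litter and array cannot be told apart.

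MMPs are zinc endopeptidases that cleave collagens and other matrix proteins and are mostly secreted as inactive proenzymes. The TIMPs bind the active site of these enzymes, and TIMP2 also serves as the bridge by which the membrane enzyme MMP14 activates the proenzyme of MMP2 at the cell surface. In developing teeth such enzymes are known for the remodelling of the basement membrane between epithelium and mesenchyme and of the dental papilla and dentin matrix.

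Values are microarray signals, which have no absolute unit and are compared between stages for the same probe set and not between probe sets. Signals below a floor, the 25th percentile of each array, were set to it, and this floor stood at 29.3, 17.2 and 21.8 on the E40, E50 and E60 arrays. Where 1 of the signals was raised the fold is given as "at least" its value, where both were raised none is given, and a probe set was called where the fold passed 2. Cadherin 1 (CDH1), an epithelial adhesion molecule, had signals of 4286, 4566 and 4765 at E40, E50 and E60, and the 11 mesenchyme and fibroblast markers were over the floor on every array. AMELX and DSPP, which encode enamel and dentin matrix proteins, were under the floor at E40 and over it later. Other genes of the same marker lists did not all run this way. AMBN was over the floor on every array, KLK4 had 75.1, 10.4 and 7.0, under the floor after E40, and IBSP had 4047, 617.4 and 4585. The E40 pool also held strong skeletal muscle signal. Its 18 muscle markers summed to 46345 at E40, 1154 at E50 and 3866 at E60, and all 18 were called lower both in E50 versus E40 and in E60 versus E40. Most of the E60 sum is MYL1, a myosin light chain, with 7116, 481.2 and 3266. In E60 versus E50, 2 of the 18 were called higher (MYL1 and DES) and 1 lower. The 6 markers of keratinised epithelium summed to 15059, 3729 and 4199, and 4 of them were called lower in both comparisons with E40. KRT10 ran the other way, with 1321, 1714 and 2276, and KRT1 was under the floor on every array. Comparisons with E40 therefore set side by side pools that differed in these marker signals. Marker sums also differed in E60 versus E50. At E40, E50 and E60 the 6 enamel epithelium markers summed to 7642, 15684 and 62222, and the 8 odontoblast and bone markers to 11337, 9176 and 20372. Whether tissue makeup had a part in the values below, in any pair of stages, was not tested. Fewer cells that express a gene and less RNA of it per cell cannot be told apart in pooled tissue.

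Among the 13 probe sets, 6 were at or over the floor on all 3 arrays (MMP2, TIMP1, both of TIMP2 and 2 of TIMP3), that of MMP9 was on 2, 3 were on 1, and 3 on none. In E50 versus E40, 0 were called higher and 1, of MMP3, was called lower, where 1.99% of all probe sets were called higher and 11.9% lower. In E60 versus E50, 0 were called in either direction, where 4.93% of all probe sets were higher and 1.45% lower. In E60 versus E40, 0 were higher and 1, the same probe set of MMP3, was lower, where 3.5% of all were higher and 9.76% lower. The median log2 fold of the member probe sets measured on both arrays was -0.15 in E50 versus E40 (6 probe sets), -0.09 in E60 versus E50 (6) and 0.01 in E60 versus E40 (7), beside -0.08, 0.01 and -0.09 over all measured probe sets.

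**Figure D1:**
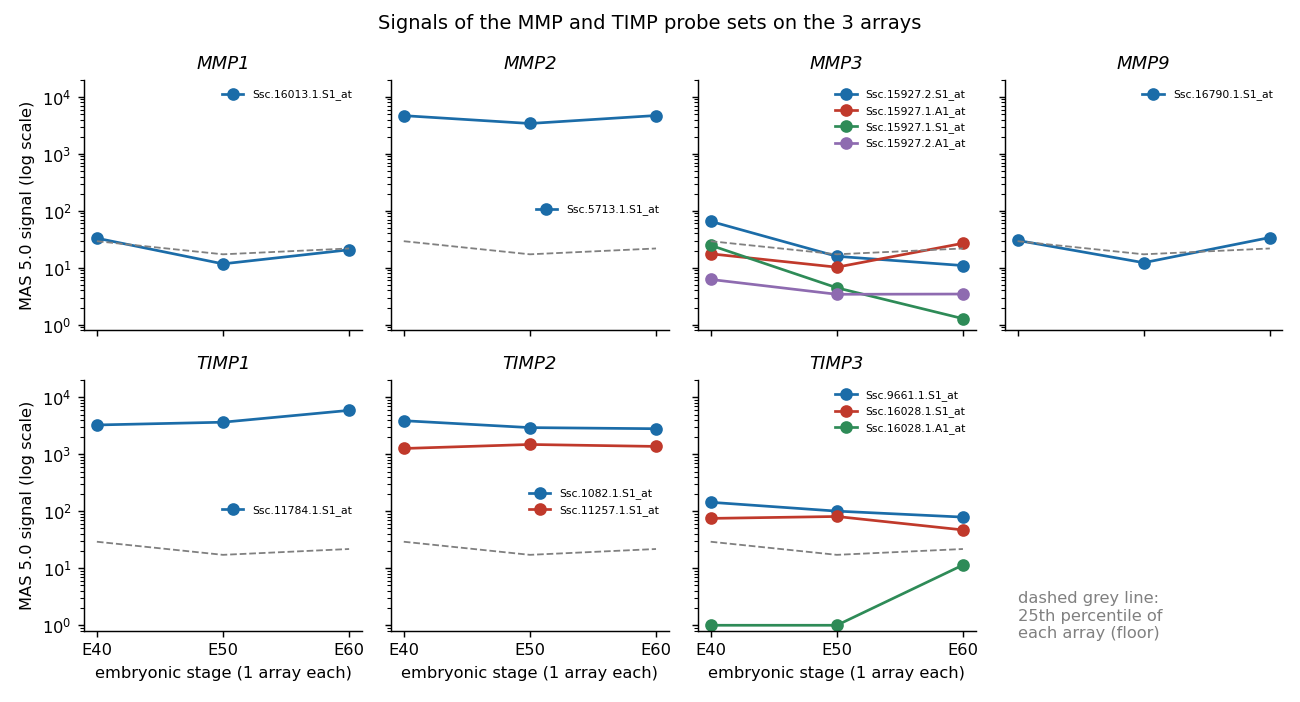
Deposited signal of each member probe set (log axis, arbitrary units) on the E40, E50 and E60 arrays, 1 panel per gene and 1 line per probe set, with the floor of each array dashed. MMP2, TIMP1 and TIMP2 ran far above the floor on every array, TIMP3 had 2 probe sets above it, and MMP1, MMP3 and MMP9 lay near or below it.

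MMP2 encodes gelatinase A, which degrades denatured collagen and basement membrane collagen and is known from odontoblasts and dentin of human teeth. Its probe set (Ssc.5713.1.S1_at) had signals of 4684 at E40, 3411 at E50 and 4708 at E60, at percentile 96.0 or above of each array. The E50 signal was the lowest of the 3, and E40 and E60 were alike. It was 1.37-fold lower at E50 than at E40 (log2 fold -0.46), 1.38-fold higher at E60 than at E50 (0.47), and 1.01-fold higher at E60 than at E40 (0.01). None of these passed 2-fold. Among the 3527 probe sets with signals over 1000 on both arrays, 7.09% were as low or lower in E50 versus E40. Under equal medians of the arrays the E50 versus E40 difference shrank to -0.07. Under quantile normalization it was -0.61 and with arrays scaled to housekeeping genes -0.48. The E60 versus E40 difference was -0.16 under quantile normalization and 0.32 under equal medians, so it has no settled sign.

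TIMP1, a secreted inhibitor of most soluble MMPs but a weak one of membrane enzymes such as MMP14, gave the highest value of its own profile at the latest stage. Its probe set (Ssc.11784.1.S1_at) had signals of 3282 at E40, 3671 at E50 and 5924 at E60. It was 1.12-fold higher at E50 than at E40 (log2 fold 0.16), 1.61-fold higher at E60 than at E50 (0.69) and 1.80-fold higher at E60 than at E40 (0.85). Of the bright probe sets, 2.73% of 3665 were as high or higher in E60 versus E50, and 3.19% of 3475 in E60 versus E40. The E60 signal stayed above both others in all 4 scalings of the arrays, with log2 folds of 0.61 to 0.74 over E50 and 0.73 to 1.16 over E40. Equal medians was the scaling under which the fold over E40 passed 2.

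The spread between probe sets of the same gene gives a part of the technical side of such folds, a comparison chosen after the values were seen. Over 142 genes whose 311 probe sets all had signals over 1000 on every array, the log2 folds of probe sets of the same gene differed with an SD of 0.32 in E50 versus E40, 0.26 in E60 versus E50 and 0.32 in E60 versus E40. This spread holds differences between probe sets and their separate noise. It leaves out variation between litters and any array effect that the probe sets of a gene share. It therefore does not say whether the TIMP1 or MMP2 folds exceed the variation between pools of 1 stage.

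TIMP2 is the inhibitor that also takes part in the activation of MMP2, and its probe sets differed in sign in both comparisons with E40. The first (Ssc.1082.1.S1_at) had signals of 3902, 2951 and 2821 at E40, E50 and E60, highest at E40. It was 1.32-fold lower at E50 than at E40, 1.05-fold lower at E60 than at E50 and 1.38-fold lower at E60 than at E40. The other (Ssc.11257.1.S1_at) had signals of 1269, 1492 and 1379, lowest at E40, and was 1.18-fold higher at E50 than at E40, 1.08-fold lower at E60 than at E50 and 1.09-fold higher at E60 than at E40. The log2 folds of E50 versus E40 were -0.40 and 0.23, opposite in sign, and neither probe set passed 2-fold in any pair. In E50 versus E40 the first was at -0.02 under equal medians, -0.55 under quantile normalization and -0.43 with arrays scaled to housekeeping genes. The other was at 0.62, 0.21 and 0.21 in the same order.

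TIMP3, the inhibitor that binds to extracellular matrix and also blocks ADAM17, was measured by 2 probe sets above the floor. Ssc.9661.1.S1_at had signals of 144.3 at E40, 100.9 at E50 and 79.2 at E60, and Ssc.16028.1.S1_at had 75.2, 81.2 and 47.2. Both were lowest at E60. In E60 versus E40 they were 1.82-fold and 1.59-fold lower (log2 folds -0.86 and -0.67), and in E60 versus E50 they were 1.27-fold and 1.72-fold lower (-0.35 and -0.78). In E50 versus E40 they differed in sign, at -0.52 and 0.11. The E60 signals of both stayed lowest in all 4 scalings, at -0.29 to -0.86 versus E40 and -0.30 to -0.95 versus E50. A dim class held 84 genes with 173 probe sets at signals of 50 to 200 on every array. There the SD between probe sets of the same gene was 0.48 in E50 versus E40, 0.37 in E60 versus E50 and 0.43 in E60 versus E40. With 47.2 at E60, Ssc.16028.1.S1_at lay just outside this class. The other TIMP3 probe set of that source sequence (Ssc.16028.1.A1_at) read 1.0, 1.0 and 11.4, under the floor on every array, and gave no fold. In the pig reference annotation TIMP1 overlaps SYN1, TIMP2 overlaps CEP295NL and TIMP3 overlaps SYN3, and whether any probe set reads the overlapping gene was not tested.

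**Figure D2:**
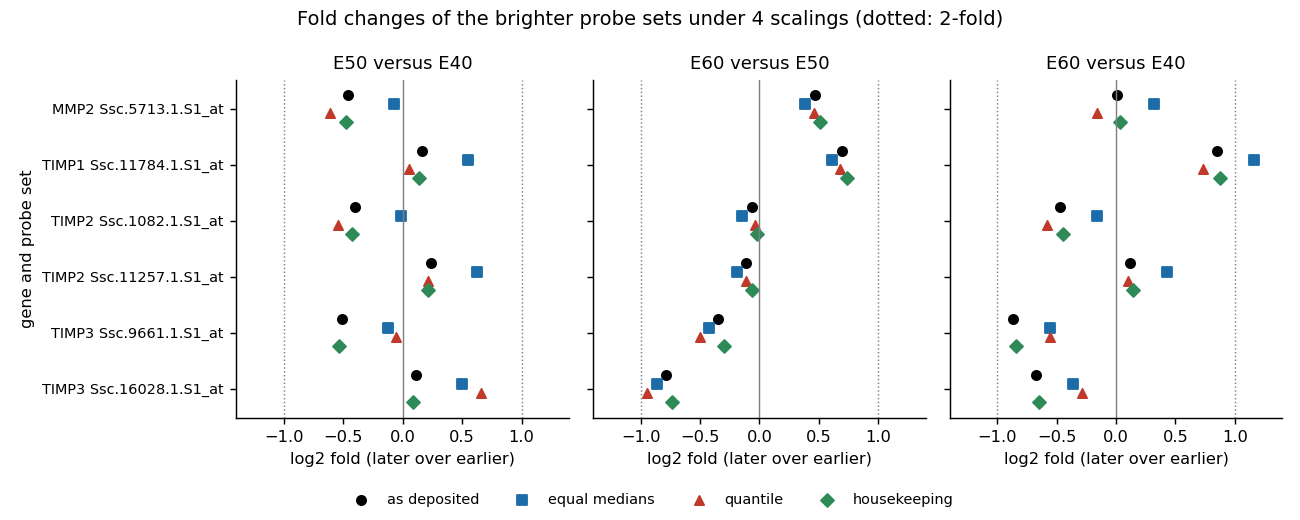
Log2 fold of the 6 probe sets at or over the floor on every array in the 3 pairs of stages, later over earlier, under 4 scalings of the arrays (symbols), with dotted lines at 2-fold and 1 array per stage, so no error bars. TIMP1 is to the right of 0 in every panel and passes 2-fold once, at 1.16 with equal medians in E60 versus E40.

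MMP3, stromelysin 1, cleaves proteoglycans, fibronectin and laminin and activates other proenzymes of the family, and it held both calls. Its probe set Ssc.15927.2.S1_at had signals of 65.3 at E40, 15.9 at E50 and 10.9 at E60, which placed it at percentiles 36.5, 23.9 and 16.0 of its array. It was over the floor at E40 and under it on the later arrays. It was at least 3.79-fold lower at E50 than at E40 and at least 2.99-fold lower at E60 than at E40, and both calls were lost when the floor was set at the 50th percentile. The bound for E50 versus E40, a log2 fold of -1.92, was -1.16 with a common floor for the arrays and -1.21 with quantile normalization, still past 2-fold. The other 3 probe sets gave no call. Ssc.15927.1.A1_at had signals of 17.6, 10.2 and 26.9 and was at least 1.56-fold higher at E60 than at E50. Ssc.15927.1.S1_at had 24.8, 4.46 and 1.28, and Ssc.15927.2.A1_at had 6.24, 3.42 and 3.46, all under the floor, where an order between stages is not read. The probe sets form pairs that share a source sequence and carry an A or an S for its orientation, and which of each pair reads the gene's own strand was not settled here. The reference annotation lists MMP10, stromelysin 2, as a synonym of pig MMP3, and whether these probe sets tell the stromelysins apart was not tested.

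MMP1, the interstitial collagenase that starts the cleavage of fibrillar collagen, is the neighbour of MMP3 in a cluster of 8 MMP genes in the pig reference annotation. Its signals (Ssc.16013.1.S1_at) were 33.1 at E40, 11.7 at E50 and 20.7 at E60, at percentiles 26.9, 19.9 and 24.3 of the arrays. It was over the floor at E40 alone, by little. It was at least 1.92-fold lower at E50 than at E40 and at least 1.52-fold lower at E60 than at E40, with no fold for E60 versus E50. With a common floor for the arrays the E50 versus E40 bound was a log2 fold of -0.18.

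MMP9, gelatinase B, is known from osteoclasts and neutrophils. Its signals (Ssc.16790.1.S1_at) were 30.2 at E40, 12.3 at E50 and 34.0 at E60, at percentiles 25.5, 20.5 and 31.3, so the E50 signal was under the floor and the others just over it. It was at least 1.75-fold lower at E50 than at E40, at least 1.97-fold higher at E60 than at E50 and 1.12-fold higher at E60 than at E40. The values as deposited would make these first folds 2.46 and 2.77, and a common floor for the arrays brought the bounds to log2 folds of -0.05 and 0.21. The 6 osteoclast markers summed to 2763, 2927 and 2826 at E40, E50 and E60, with 0, 2 and 1 under the floor, and the 6 neutrophil markers to 262.0, 158.8 and 196.5, with 3, 4 and 3 of these under the floor. The 12 macrophage markers summed to 1322, 1211 and 1682, with 3, 3 and 1 under the floor. Single markers, named after their values were seen, did not run one way. The osteoclast sum is mostly CTSK, the collagen-cleaving cathepsin of osteoclasts, with 1988, 2164 and 2008. ITGB3, an integrin of osteoclasts, had 229.2, 75.03 and 215.9, lowest at E50, whereas NFATC1, a transcription factor of osteoclasts, had 72.1, 173.0 and 106.6, highest at E50. Among macrophage markers TYROBP, a signalling adaptor, had 100.7, 8.5 and 103.5, lowest at E50, whereas AIF1, a calcium-binding protein, had 309.7, 447.3 and 609.0, lowest at E40. Their part in the MMP9 values was not tested.

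**Figure D3:**
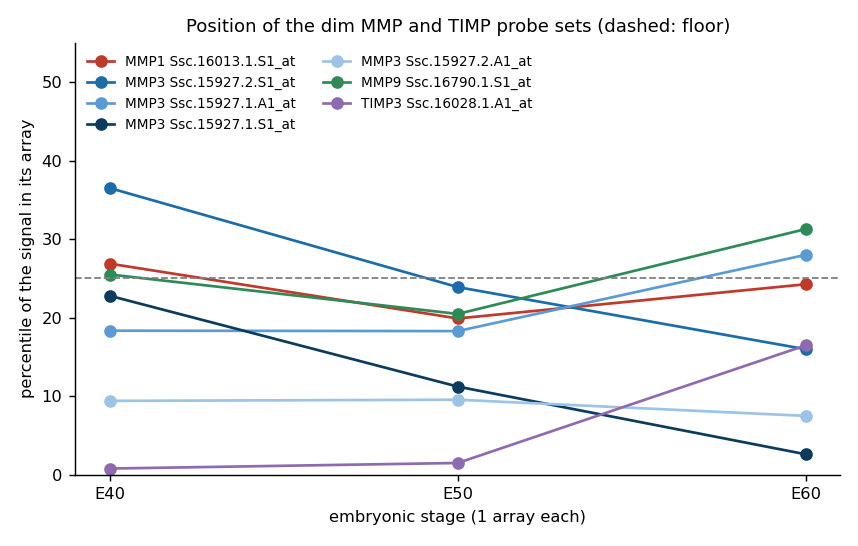
Percentile of the MMP1, MMP3 and MMP9 probe sets, and of the TIMP3 probe set under the floor, within their own array at E40, E50 and E60, 1 line per probe set, with the floor at percentile 25 dashed. MMP1 and MMP9 stayed between percentiles 19.9 and 31.3, and the called MMP3 probe set was at 36.5 at E40 and 16.0 at E60.

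Ratios of 2 signals within an array do not depend on the factor by which that array was scaled, and their changes show whether inhibitor and enzyme signals moved apart. These ratios were chosen after the values were seen. TIMP1 over MMP2 was 1.54-fold higher at E50 than at E40, 1.17-fold higher at E60 than at E50 and 1.80-fold higher at E60 than at E40. TIMP1 over TIMP2 was higher at E60 than at E40 with either TIMP2 probe set, by 2.50-fold with Ssc.1082.1.S1_at and by 1.66-fold with Ssc.11257.1.S1_at. For E50 versus E40 the probe sets disagreed, with log2 changes of 0.56 and -0.07. TIMP2 over MMP2 was lower at E60 than at E50 by 1.44-fold with the first and by 1.49-fold with the second. In E60 versus E40 these TIMP2 probe sets gave opposite signs, with log2 changes of -0.48 and 0.11. TIMP3 (Ssc.9661.1.S1_at) over MMP2 was 1.83-fold lower at E60 than at E40, most of it in E60 versus E50, where it was 1.76-fold lower.

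**Figure D4:**
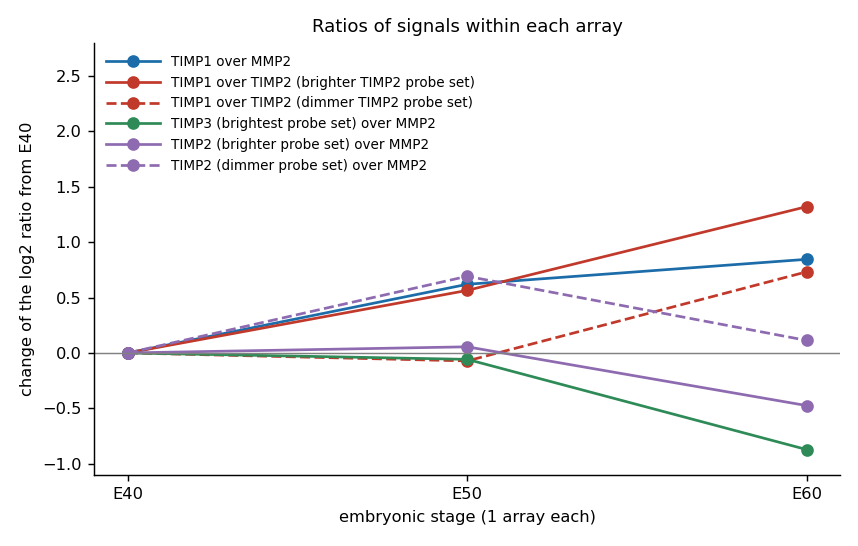
Change of 6 log2 ratios of signals within an array relative to E40 (vertical axis) at E40, E50 and E60, 1 line per ratio and 1 array per stage. TIMP1 over the brighter TIMP2 probe set ended highest at E60, at 1.32, and TIMP3 over MMP2 lowest, at -0.87.

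MMP14, the membrane enzyme that activates MMP2, had signals of 690.8 at E40, 886.0 at E50 and 986.3 at E60, lowest at E40. It was 1.28-fold higher at E50 than at E40, 1.11-fold higher at E60 than at E50 and 1.43-fold higher at E60 than at E40, under 2-fold. MMP14 over MMP2 was 1.76-fold higher at E50 than at E40 and 1.24-fold lower at E60 than at E50. Of 17 other MMP genes listed, 3 had a probe set under their symbol in the annotation table, and 0 of these were called in any pair. A gene read only by probe sets without a symbol, 13732 in number, would be missed. The study stained sections for MMP25 protein and reported that its changes matched the array data. MMP25 is not among the 3 genes with a probe set, so its signal was not examined here. Over the 6765 named genes, 2.5%, 3.99% and 4.07% were called higher in E50 versus E40, E60 versus E50 and E60 versus E40. The shares called lower were 7.3%, 1.6% and 6.61% in the same order, so 0 of 3 says little. MMP13, a collagenase of cartilage and bone, had 30.5, 21.8 and 6.8, and MMP7, matrilysin, had 1.0, 13.4 and 2.6, under the floor on every array. RECK, a membrane-anchored inhibitor, had no probe set in the table used.

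Of 8 other inhibitors 4 had a probe set. In every pair the same 1 of the 4 was called higher, beside 2.5%, 3.99% and 4.07% of all named genes in the order above. This was alpha-2-macroglobulin (A2M), a plasma and tissue protein that traps proteases of many classes, with signals of 60.3 at E40, 249.0 at E50 and 2097 at E60. It was 4.13-fold higher at E50 than at E40 and 8.42-fold higher at E60 than at E50. SPOCK3, a proteoglycan reported to inhibit membrane-type MMPs, had 378.1, 332.8 and 586.0, and TFPI2, a serine protease inhibitor, had 140.9, 144.2 and 236.1, both highest at E60 and under 2-fold in every pair. TIMP4 had 21.9, 30.1 and 18.2, under the floor except at E50.

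Of 11 genes of activation and uptake with a probe set, 10 were measured in each pair and 0 were called higher in any. Of all named genes 2.5%, 3.99% and 4.07% were called higher in E50 versus E40, E60 versus E50 and E60 versus E40. TNC and KNG1 were called lower in E50 versus E40 (7.3% of all named genes), 0 were in E60 versus E50 (1.6% of all), and TNC was in E60 versus E40 (6.61% of all). PLAU, the urokinase that makes plasmin, had signals of 375.1, 246.9 and 235.9 at E40, E50 and E60, and PLAT, the tissue-type activator, had 351.4, 176.3 and 240.2. SERPINE2, an inhibitor of both activators, had 572.4, 929.1 and 817.3, lowest at E40. The folds of these 3 stayed under 2. Of 8 ADAM and ADAMTS genes, 2 were called lower in both E50 versus E40 and E60 versus E40 (7.3% and 6.61% of all). BMP1, the procollagen C-proteinase, was 2.60-fold lower at E50 than at E40 and 2.24-fold lower at E60 than at E40. ADAM28 was at least 4.55-fold lower at E50 than at E40 and 2.41-fold lower at E60 than at E40. ADAM17, the sheddase that TIMP3 inhibits, had 201.3, 123.3 and 133.8 and was not called.

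Substrates of these enzymes include collagens, laminins and proteoglycans. Of 26 with a probe set, 0 were higher and 10 lower in E50 versus E40, beside 2.5% higher and 7.3% lower over all 6765 named genes with 1 probe set each. Their median log2 fold was -0.87 and that of all named genes 0.07. The count for E60 versus E50 was 4 higher and 0 lower (3.99% and 1.6% of all), with a median of 0.36 beside -0.05. In E60 versus E40, 2 were higher and 10 lower (4.07% and 6.61% of all). THBS2, a matricellular protein that binds MMP2 for its clearance, had 2476, 515.2 and 512.9, and was 4.80-fold lower at E50 than at E40. The collagen V chains COL5A1 and COL5A2, which set the width of collagen fibrils, were 3.57-fold and 4.27-fold lower at E50 than at E40. COL7A1, the anchoring fibril collagen beneath epithelium, was 2.72-fold lower at E50 and 3.11-fold lower at E60 than at E40. ACAN, the cartilage proteoglycan, was 2.02-fold and 3.54-fold lower in those pairs. The 11 mesenchyme and fibroblast markers, some of which are substrate genes too, had a median of -0.89 in E50 versus E40, with 0 higher and 5 lower, and 0.41 in E60 versus E50. Single markers did not all run this way. THY1 had the opposite sign in both pairs, at 0.55 and -0.34, LUM was at 0.01 in E50 versus E40, and PRRX1 at -0.41 in E60 versus E50. MMP2 had the same signs as the medians in both pairs, and its relation to these markers was not tested.

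Regulators of MMP transcription were mixed. Of 21 with a probe set, 1 was higher and 6 lower in E50 versus E40 (2.5% and 7.3% of all named genes). For E60 versus E50 there were 5 higher and 0 lower (3.99% and 1.6% of all), and for E60 versus E40 1 higher and 2 lower (4.07% and 6.61% of all). TGFB1, a growth factor known to raise TIMP1 and lower MMP1 transcription in fibroblasts, had signals of 263.3 at E40, 596.1 at E50 and 1826 at E60, and was 2.26-fold higher at E50 than at E40 and 3.06-fold higher at E60 than at E50. IL1A, a cytokine known to induce MMP1 and MMP3, had 143.5, 55.6 and 30.1, and was 4.77-fold lower at E60 than at E40. FGF2 had 77.4, 22.1 and 8.6, under the floor at E60, and was at least 3.55-fold lower at E60 than at E40. SP1 and EGR1, zinc finger transcription factors, were lowest at E50: SP1 had 92.5, 17.7 and 58.1, and EGR1 had 130.4, 53.1 and 150.7. The E50 signal of SP1 was just over the floor of 17.2. These values stand beside those of the members, and no link between them was tested.

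**Figure D5:**
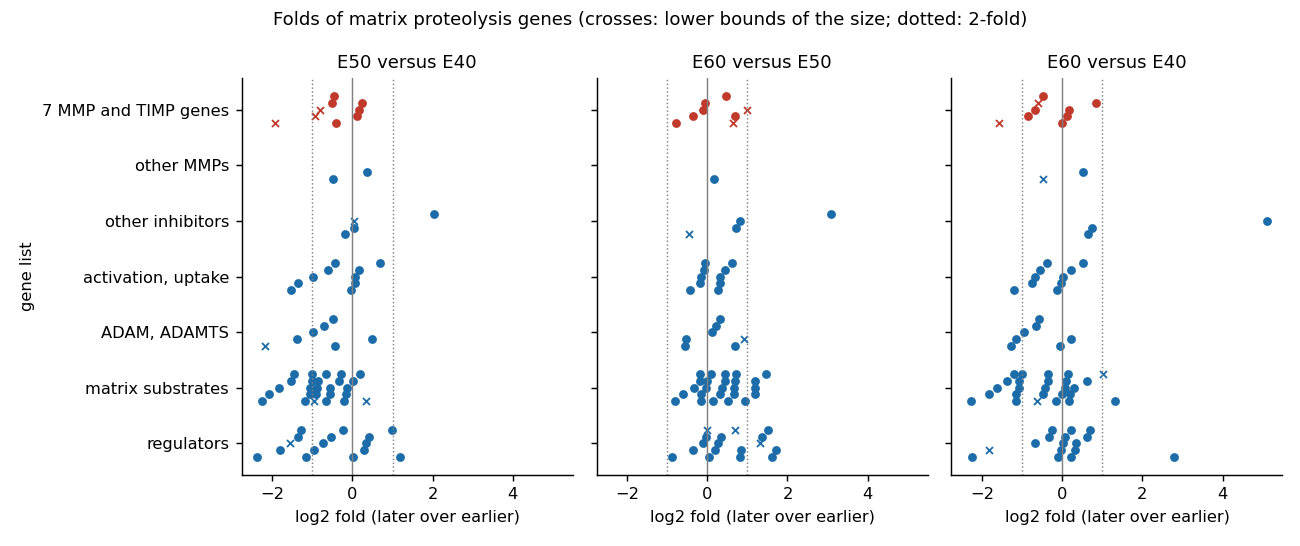
Log2 fold, later over earlier, of the member probe sets (top row, red) and of the genes of 6 matrix proteolysis lists (blue, 1 point per gene) in the 3 pairs of stages, with crosses for lower bounds and dotted lines at 2-fold. The substrate genes sit mostly below 0 in E50 versus E40, with a median of -0.87, and A2M is the highest inhibitor in each pair.

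Over the 72 genes of these lists with a probe set, 2 were higher and 19 lower in E50 versus E40, beside 2.5% and 7.3% of all named genes. The split was 10 higher and 0 lower in E60 versus E50, beside 3.99% and 1.6%, and 4 higher and 14 lower in E60 versus E40, beside 4.07% and 6.61%. These splits depend on scaling and on the probe sets used. In E50 versus E40 they were 4 higher and 9 lower with equal medians and 4 and 12 with quantile normalization. In E60 versus E40 they were 6 and 6 with equal medians, and in E60 versus E50 quantile normalization gave 9 and 2. With the mean over the probe sets of each gene, E50 versus E40 gave 1 higher and 13 lower. The same mean gave 12 and 0 in E60 versus E50 and 6 and 9 in E60 versus E40. Over all probe sets, equal medians turned the 477 higher and 2862 lower of E50 versus E40 into 1455 and 1808, and shifted the median log2 difference of all probe sets, as deposited at -0.15, to 0.24.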

How the data were processed

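RNA of 3 pools of tooth germs was labelled with a 3′ kit and read on 1 array per stage. The authors computed MAS5 signals, scaled the arrays and deposited log2 values, which were converted back to signals. The mean with 2% trimmed at each end was the same on the 3 arrays. Detection calls were not used here, so the floor stands in for them. Of 24123 rows, 124 array controls were left out. The platform table gave 1 symbol for 10069 probe sets, several for 198 and none for 13732, and a pig RefSeq table (Sscrofa11.1) gave names and neighbours. For each listed gene the brightest of its probe sets with 1 symbol was used. All member probe sets are named, with up to 5 genes of each other list by largest fold and MMP14, MMP13, PLAU and RECK. MMP20 is not covered here. The members and lists were chosen with earlier results of these data known. Alternatives changed the floor, scaling, threshold and probe sets. Python 3.11.15, numpy 2.4.6 and pandas 2.3.3 were used, and calling was tested on simulated data.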

Additional observations from a re-analysis of the deposited data

How the results depend on the processing

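Without a floor, 4 member probe sets passed 2-fold in E50 versus E40 (0 higher, 4 lower), 4 in E60 versus E50 (3 higher, 1 lower) and 3 in E60 versus E40 (1 higher, 2 lower). All were of MMP1, MMP3, MMP9 or TIMP3 with at least 1 signal under its floor. The shares of all probe sets called without a floor, with a floor at the 50th percentile and at a 3-fold threshold were not computed. With the floor at the 50th percentile, 0 passed in E50 versus E40 and 0 in E60 versus E40. Equal medians gave 2 in E60 versus E40 (TIMP1 higher, MMP3 lower), where 1628 of all 23999 probe sets were called higher and 1467 lower. Housekeeping scaling gave 1 higher in E60 versus E50 (MMP9), where 1329 of all were higher and 301 lower. A 3-fold threshold gave 0 in E60 versus E40. For the other proteolysis genes, no floor gave 18 in E60 versus E50, the 50th percentile floor gave 11 in E50 versus E40 and 5 in E60 versus E50, equal medians gave 13 in E50 versus E40, and the 3-fold threshold gave 7, 3 and 7 in the order E50 versus E40, E60 versus E50 and E60 versus E40. Of 141 alternative values of the 26 member folds, 132 stayed within 1.5-fold and 9 moved, all of MMP1, MMP3 or MMP9. Folds that an alternative left without a value were not counted, and the 50th percentile floor kept 12 of the 26. A change of floor cannot move a fold whose signals both lie over it, so this tally does not measure how stable the folds are. With a common floor the log2 bound in E50 versus E40 was -0.18 for MMP1, -0.05 for MMP9 and -1.16 for MMP3, which kept its call. No paired analysis was possible because each stage has 1 array. Dim signals near the floor limit what MMP1, MMP3 and MMP9 can show.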

Other observations

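The genes with profiles nearest to those of the members were looked up although no member probe set met both conditions set for this, a signal over the floor on all 3 arrays and a fold over 2 in any pair, so the choice was made after the values were seen. Likeness was the distance between log2 signals centred on their own mean over 3 arrays, which is a description of 3 points and says nothing of shared function. Nearest to TIMP1 were APOD, a lipocalin, with signals of 117.1, 133.0 and 213.7 at E40, E50 and E60, and CD59, an inhibitor of complement lysis, with 1700.0, 1883 and 3014. Of 5742 genes compared, 20 lay within a distance of 0.1 of TIMP1, 76 of MMP2, and 118 and 430 of the TIMP2 probe sets Ssc.1082.1.S1_at and Ssc.11257.1.S1_at. Nearest to MMP2 were SH2B1, a signalling adaptor, with 577.0, 420.1 and 577.6, and SREBF1, a regulator of lipid synthesis, with 80.3, 59.0 and 80.5.

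BGN, a small matrix proteoglycan named after its values were seen, had signals of 2058 at E40, 1875 at E50 and 5153 at E60. Together with VTN it made up the 2 substrate genes that were higher at E60 than at E40, while 10 were lower.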
